A study of Mus musculus with 2 samples.

Results

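The 10 genes described here are markers and membrane proteins of astrocytes, measured in mouse glioblastoma grafts and the host cells around them. They were taken by symbol from the 19059 genes of the probe panel, and 10 of 10 were on it: Aqp4, Slc1a2, Slc1a3, Slc6a11, Gja1, Gfap, Agt, Mlc1, Aldh1l1 and S100b. The tumors were orthotopic grafts of mGSC, a mouse glioblastoma stem cell line of genotype Trp53+/- and Nf1+/-, in C57BL/6J mice. Mice received vehicle or Xevinapant, a small-molecule mimetic of SMAC that antagonises inhibitor of apoptosis proteins, every day, and 4 tumors per group were taken right after treatment. Each group was 1 pooled library of fixed, probe-hybridised single cells, deposited as 4 matrices of unique molecular identifier (UMI) counts, so pool, collection batch and treatment cannot be told apart. The vehicle library was labelled total RNA and the Xevinapant library polyA RNA. All grafts came from the same line, and both groups carried both mutations, so neither group is a normal brain or an untreated one.

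Astrocytes clear glutamate and GABA from the extracellular space, buffer water and ions at vascular endfeet and are coupled to each other through gap junctions. Slc1a2 and Slc1a3 encode the glutamate transporters GLT-1 and GLAST, Slc6a11 encodes the GABA transporter GAT-3, and Aqp4 encodes the water channel of the endfeet. Mlc1 encodes an endfoot membrane protein, Gja1 the gap junction protein connexin 43, Gfap the intermediate filament of reactive astrocytes, Agt the precursor of angiotensin, Aldh1l1 a folate enzyme and S100b a calcium-binding protein that oligodendrocyte-lineage cells also make. Glioblastoma cells occupy states that resemble astrocytes (AC-like), oligodendrocyte progenitors (OPC-like), neural progenitors (NPC-like) or mesenchymal, hypoxic cells (MES-like).

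The 8 matrices held 56943 barcodes, with medians of 7452 to 14027 UMIs per barcode. Within a group, 3 pairs of matrices were far more alike than the others. Over 8754 genes their mean squared difference, in units of counting error, was 1.73 for the vehicle pair and 7.92 and 9.19 for the Xevinapant pairs, against 35.3 to 109 for the other pairs within a group. A value of 1 would be counting error alone, so the pairs were not identical. The pairs were joined on this likeness alone, which gave 3 vehicle samples (A, B, C) and 2 Xevinapant samples (A, B). The paper describes integrating samples of individual mice, so each matrix may instead be 1 mouse. Each matrix as its own sample was an alternative. With it edgeR called 659 genes between the groups over all tumor-gated cells, against 0 with joined samples. Of the barcodes that passed the filters, 0.883% to 3.04% per matrix had the same full barcode in both pools, and the edgeR comparisons, apart from the interaction tests, and the shares of tumor-gated cells compared between the groups were also computed without them. Nothing in the labels ties a matrix to 1 tumor, so p-values measure the spread between these samples, which may be partly technical.

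Cells were gated on marker genes that do not include any of the 10 genes, after each cell had been thinned to 3000 UMIs. A tumor-gated cell had at most 1 detected gene of each of the immune, endothelial, fibroblast, mural and erythroid lists, and 34968 of 39638 cells met this. The AC-like gate asked for 3 of 6 astrocyte genes, among them Clu, Id4, Ntsr2, Slc4a4 and Sparcl1, and held 3637 cells. The OPC-like gate held 9161 cells, the oligodendrocyte-committed gate 3920, the MES-like gate 2298 and the NPC-like gate 631. A further 13731 tumor-gated cells met no state and 1590 met several. Several was counted over the AC-like, oligodendrocyte-committed, NPC-like and MES-like gates only. A cell that met the OPC-like gate and 1 of these gates was placed in the latter. OPC-like cells thus met none of these other gates, while AC-like cells could also meet the OPC-like gate. Slc4a4 was near 0 in every tumor state, while in the AC-like gate the median over the samples was 2289 counts per 1000000 UMIs (CPM) for Sparcl1, 955 CPM for Clu and 505 CPM for Id4. In the AC-like gate the glioma lineage factors Olig1 and Olig2 had medians of 523 and 432 CPM. Olig2 also had a UMI in 11.3% to 37.5% of immune-gated cells, so part of these levels may be background, which was not tested. Ependymal and choroid plexus markers summed to 9.19 to 31.9 CPM in the AC-like gate (median 13.6), most of it Foxj1 at 9.08 to 31.8. This was more than in the other tumor states, whose medians were 2.48 to 4.04.

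The promoters of 4 of the genes are shown because these genes follow different patterns below: Agt and Gfap were concentrated in AC-like cells, Slc1a3 had a smaller share of its tumor UMIs there, and S100b was highest outside the AC-like gate. Each line is the 250 bases before the RefSeq start site on the gene's own strand (build GRCm38.p6), and 9 of the 10 genes had an entry in the promoter table. Capitals mark TTCNNNGAA, the palindrome bound by STAT factors, TTGGCA, a half-site of nuclear factor I, and TATAAA, the TATA box, each searched on both strands with no overlaps among the matches.
Agt, chr8:124569707-124569956, minus strand: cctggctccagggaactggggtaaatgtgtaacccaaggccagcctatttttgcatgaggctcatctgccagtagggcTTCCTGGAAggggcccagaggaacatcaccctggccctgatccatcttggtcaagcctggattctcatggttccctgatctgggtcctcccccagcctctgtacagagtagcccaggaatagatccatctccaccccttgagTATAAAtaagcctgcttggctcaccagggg
Gfap, chr11:102897201-102897450, minus strand: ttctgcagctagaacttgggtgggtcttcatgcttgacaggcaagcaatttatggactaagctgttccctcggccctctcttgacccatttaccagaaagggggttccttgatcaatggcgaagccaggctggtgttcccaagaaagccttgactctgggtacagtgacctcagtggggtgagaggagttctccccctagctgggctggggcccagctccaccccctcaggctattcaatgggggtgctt
Slc1a3, chr15:8710808-8711057, minus strand: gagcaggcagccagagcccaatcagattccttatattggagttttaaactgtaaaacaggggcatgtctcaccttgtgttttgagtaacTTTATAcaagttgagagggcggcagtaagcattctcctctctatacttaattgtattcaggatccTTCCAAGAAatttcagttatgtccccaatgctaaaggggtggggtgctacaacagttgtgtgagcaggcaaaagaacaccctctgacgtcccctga
S100b, chr10:76253586-76253835, plus strand: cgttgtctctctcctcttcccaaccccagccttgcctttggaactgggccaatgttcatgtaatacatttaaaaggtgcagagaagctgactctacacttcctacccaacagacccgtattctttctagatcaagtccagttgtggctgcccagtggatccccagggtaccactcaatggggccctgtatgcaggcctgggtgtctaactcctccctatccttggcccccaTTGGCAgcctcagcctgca
TTCNNNGAA occurred at -172 to -164 of Agt and at -96 to -88 of Slc1a3, and 7.02% of all 32851 promoters held it. TATAAA occurred at -30 to -25 of Agt and, on the opposite strand, at -161 to -156 of Slc1a3, and 12.4% of all promoters held it. TTGGCA occurred at -19 to -14 of S100b, and 12.3% of all promoters held it. The 250 bases of Gfap held none of these letters, which says nothing of sites farther away.

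Of the 10 genes, 7 were highest in the AC-like gate in each of the 5 samples, in the order of 5 tumor states. These were Aqp4, Slc1a3, Slc6a11, Gfap, Agt, Mlc1 and Aldh1l1. Slc1a2 was highest in AC-like or NPC-like cells, S100b was highest in oligodendrocyte-committed cells, and Gja1 was nearly absent from tumor cells. Levels are in CPM, the UMIs of the gene per 1000000 UMIs of the gate, summed per sample. Probe efficiency differs between genes and no length scaling applies to these counts, so levels are compared between cells and never between genes.

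**Figure D1:**
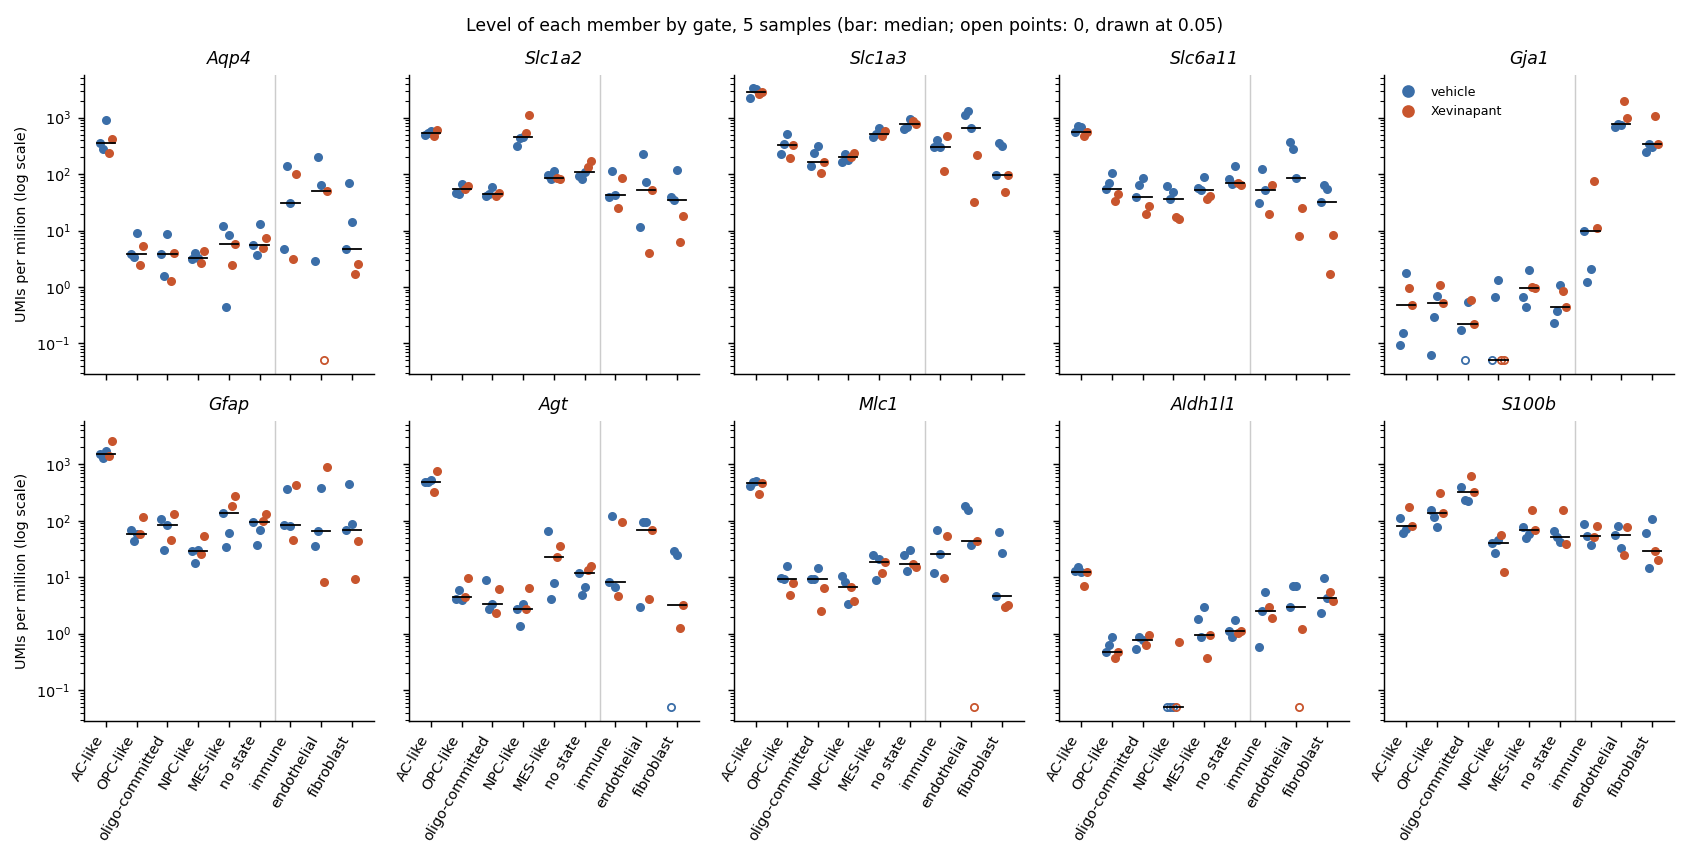
Level of each of the 10 genes by gate, in CPM on a log axis, with 1 point per sample (3 vehicle, 2 Xevinapant), a bar at the median and a vertical line between tumor states and host cells. Aqp4, Gfap, Agt and Mlc1 stand far above the other states in AC-like cells, Gja1 is above 200 only in endothelial and fibroblast cells, and S100b peaks in oligodendrocyte-committed cells.

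Aqp4, Agt and Mlc1 had the largest shares of their tumor UMIs in AC-like cells. Aqp4 in AC-like cells was 356, 279 and 909 CPM in vehicle A, B and C and 233 and 420 in Xevinapant A and B. In the MES-like gate, the next in order, it ran from 0.436 to 12.2. Every AC-like value lay above every value of the other 4 states. Mlc1 was 407, 489 and 502 CPM in the vehicle samples and 298 and 469 in the Xevinapant samples of the AC-like gate, against 8.94 to 25.1 in MES-like cells. Agt was 487, 478 and 518 in vehicle and 329 and 769 in Xevinapant, against 4.14 to 66.6 in MES-like cells. AC-like cells were a median 9.46% of the tumor UMIs but carried a median 80.9% of the Aqp4 UMIs (68.4% to 83.6% over samples), 74.5% of the Agt UMIs and 67.9% of the Mlc1 UMIs.

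Gfap was also highest in AC-like cells in each sample. Its AC-like level was 1499, 1267 and 1717 CPM in vehicle and 1408 and 2615 in Xevinapant, and AC-like cells held a median 63.0% of its tumor UMIs. In MES-like cells Gfap was 34.7 to 271, in oligodendrocyte-committed cells 29.7 to 133 and in OPC-like cells 44.1 to 118, and these ranges overlapped. Aldh1l1, a pan-astrocyte marker of normal brain, was sparse. Its AC-like level was 6.95 to 15.4 CPM, and at 3000 UMIs per cell 2.68% to 3.95% of AC-like cells had a UMI.

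The UMIs of Slc1a3 and Slc6a11 were less concentrated in AC-like cells. Slc1a3 in AC-like cells was 2278, 3338 and 3239 CPM in vehicle and 2623 and 2840 in Xevinapant. It stayed at 447 to 646 in MES-like cells, 197 to 511 in OPC-like cells, 164 to 240 in NPC-like cells and 106 to 313 in oligodendrocyte-committed cells, the last 3 of which overlapped. Tumor cells of no state, at 623 to 958, were above MES-like cells in each sample. AC-like cells held a median 34.6% of its tumor UMIs and cells of no state 39.3%. Slc6a11 was 477 to 717 CPM in AC-like cells and 15.9 to 104 over the other 4 states, with 43.8% of its tumor UMIs in AC-like cells. The immune gate averaged 338 CPM of Slc1a3 in vehicle and 290 in Xevinapant, and 69.6 and 42.1 of Slc6a11. Levels outside AC-like cells that lie near or below these are not called above background.

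Slc1a2 was the glutamate transporter with a second site of expression. In AC-like cells it was 494, 546 and 588 CPM in vehicle and 474 and 603 in Xevinapant. In NPC-like cells it was 315, 443 and 457 in vehicle and 536 and 1128 in Xevinapant, so the AC-like gate was higher in 3 of 5 samples and the order of these gates was not settled. MES-like cells followed at 82.9 to 116, OPC-like cells at 44.7 to 67.8 and oligodendrocyte-committed cells at 41.0 to 60.4. The other glutamate transporter, Slc1a3, was 164 to 240 in the same NPC-like cells. Of the endfoot genes Mlc1 was 3.32 to 10.4 there and Aqp4 2.70 to 4.32. Slc1a2 had a UMI in 47.0% to 81.4% of NPC-like cells at 3000 UMIs per cell and in 51.4% to 61.3% of AC-like cells. The 4 neuron markers Snap25, Slc17a7, Gad1 and Slc32a1 summed to 202 to 478 CPM in the NPC-like gate, led by Snap25 at 130 to 438, against 11.5 to 19.0 in the AC-like gate, and their part in the Slc1a2 level was not tested. Cdkn2a, a tumor suppressor gene detected more often in tumor-gated than in immune-gated cells here, was 104 to 192 CPM in the NPC-like gate, against 280 to 384 in the AC-like gate and 68.9 to 156 in the immune gate.

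S100b was set apart from the rest of the list. It was 403, 234 and 222 CPM in the oligodendrocyte-committed gate of vehicle A, B and C and 623 and 329 in Xevinapant A and B. OPC-like cells followed at 78.6 to 313, AC-like cells at 60.6 to 179, MES-like cells at 49.9 to 152 and NPC-like cells at 12.5 to 56.7. In each of the 5 samples these gates stood in this order, although the ranges over samples overlapped, and Xevinapant A was the highest sample in each of the 5 gates. AC-like cells held a median 6.66% of the tumor's S100b UMIs, less than their 9.46% of all tumor UMIs.

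Gja1 was at 0.170 to 1.08 CPM over all tumor-gated cells. It had a UMI in 3 of 6175, 2 of 5014 and 35 of 9514 tumor-gated cells of vehicle A, B and C and in 13 of 4514 and 12 of 9751 of Xevinapant A and B at 3000 UMIs per cell. In AC-like cells it was 0.0947 to 1.75 CPM, and this differed from OPC-like cells by 0.44 ± 0.35 (log2, SE, edgeR adjusted p = 0.296). The probes for Gja1 did work in these libraries. In endothelial-gated cells of the same pools it was 691, 771 and 731 CPM in vehicle and 1969 and 1004 in Xevinapant, and 75.0% to 91.7% of those cells had a UMI. Fibroblast-gated cells had 244 to 1068. The tumor's shares of 0.0399% to 0.368% were below the share of immune-gated cells with a UMI in 4 of 5 samples. That share was 11.2% in Xevinapant A, where the tumor's was 0.288%, and 0% to 2.24% in the other 4 samples, so the immune gate gives no common background level for Gja1, and the source of its UMIs there was not tested. For vehicle B, the immune share was 0 of 143 cells, which allows a share of up to 2.10% by counting error alone. Median depth before thinning was 14378 to 19039 UMIs in tumor-gated and 7106 to 8467 in immune-gated cells.

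The immune gate was also read beside the other genes, since free RNA and mixed droplets can give UMIs in cells that do not express a gene. Aqp4 had a UMI in 0.273% to 2.67% of OPC-like cells and in 0.709% to 4.91% of immune-gated cells. The shares were 0.827% to 2.25% against 1.28% to 5.59% for Agt, 1.36% to 3.81% against 1.56% to 4.20% for Mlc1 and 9.02% to 19.5% against 7.80% to 20.2% for Gfap. At this depth none of these 4 shares in OPC-like cells can be read as expression. Slc1a3 had a UMI in 29.1% to 55.4% of OPC-like cells against 7.66% to 25.2% of immune-gated cells, and Slc6a11 in 8.36% to 23.7% against 1.99% to 8.39%, higher in OPC-like cells in each sample. By CPM this order did not hold in each sample. Slc1a3 was 228, 335 and 511 CPM in OPC-like cells of vehicle A, B and C and 197 and 332 in Xevinapant A and B, against 298, 409, 306, 114 and 465 in the immune gate, higher in 2 of 5 samples. Slc6a11, at 33.6 to 104 against 19.6 to 125, and Slc1a2, at 44.7 to 67.8 against 25.04 to 113, were each higher in 3 of 5. The OPC-like levels of these 3 transporters are therefore not called above background. S100b, with a UMI in 19.1% to 44.1% of OPC-like against 6.72% to 8.26% of immune-gated cells, was also higher by CPM in 5 of 5 samples.

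The contrast of AC-like with OPC-like cells was tested with the sample as a block, since each sample gave both sums. AC-like cells were gated on other astrocyte genes, and OPC-like cells were required to miss that gate. The 10 genes and the gate lists were chosen with earlier results of these data known. Higher astrocyte genes in AC-like cells thus follow in part from the gating, and the p-values are not an independent test of it. At an adjusted p under 0.05, 67.3% of 13444 genes differed, 32.6% higher and 34.7% lower in AC-like cells. Of the 10 genes, 8 were higher, 1 was lower and Gja1 did not pass. The median log2 difference was 3.90 for the 10 genes and -0.010 for all genes tested. Agt was higher by 6.59 ± 0.12 (log2, SE, n = 5 samples, edgeR adjusted p = 4.45e-10), Aqp4 by 6.53 ± 0.063 and Mlc1 by 5.55 ± 0.14. Gfap rose by 4.67 ± 0.081, Aldh1l1 by 4.39 ± 0.18, Slc6a11 by 3.41 ± 0.15, Slc1a2 by 3.33 ± 0.074 and Slc1a3 by 3.25 ± 0.13. S100b fell by 0.58 ± 0.097 on the log2 scale (edgeR adjusted p = 0.000475). All 9 calls were higher or lower in the same direction in 5 of 5 samples. The OPC-like CPM of Agt, Aqp4, Mlc1 and Aldh1l1 was below that of the immune gate of the same sample in 5 of 5 samples and that of Gfap in 4 of 5, while the AC-like CPM of these 5 genes was above it in 5 of 5. The differences of these 5 genes are thus set against a level that cannot be told apart from background, and their sizes are not ratios of expression between the states. The same limit holds for Slc1a3, Slc6a11 and Slc1a2 in the samples where the OPC-like level was below the immune gate's.

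A list of 39 other astrocyte genes, also chosen with earlier results known, was read beside them, and the same limit of the gating holds for it. In the same contrast 37 were tested, 34 were higher in AC-like cells and none was lower, with a median log2 difference of 1.91. The largest rises were Slc39a12, a zinc transporter, by 5.92 ± 0.45, Itih3, an inter-alpha-trypsin inhibitor heavy chain, by 5.62 ± 0.12, and the lipid carrier Apoe by 4.35 ± 0.15.

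Within single cells the 10 genes were tested for joint detection at 3000 UMIs per cell. At least 5 of the 10 had a UMI in 38.8%, 40.5% and 47.4% of AC-like cells of vehicle A, B and C and in 32.3% and 44.6% of those of Xevinapant A and B. In OPC-like cells the share was 0% to 0.428% (vehicle B had 0 of 1209 cells, which allows up to 0.248%), in MES-like cells 0.240% to 0.831%, in cells of no state 0.490% to 1.47% and in immune-gated cells 0.426% to 3.497%. Of all tumor-gated cells with at least 5, between 74.3% and 84.2% lay in the AC-like gate and 8.67% to 20.4% among cells that met several states. At least 1 of the 10 had a UMI in 75.8% to 82.5% of tumor-gated cells.

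**Figure D2:**
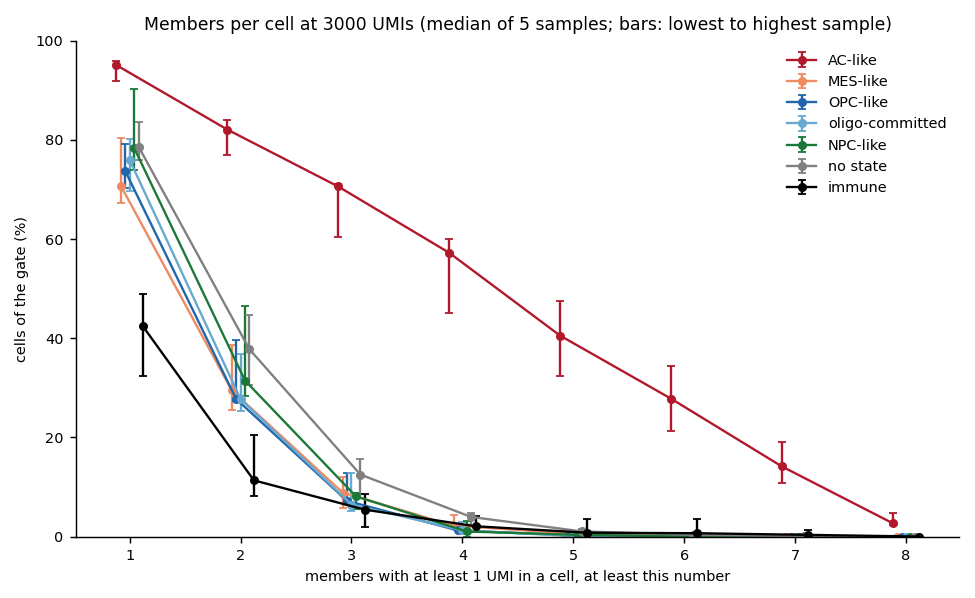
Percentage of cells in each gate with at least the number of the 10 genes on the horizontal axis detected, each cell thinned to 3000 UMIs. Lines are medians of 5 samples and bars run from the lowest to the highest sample. At 5 genes the AC-like gate lies between 32.3% and 47.4% and the other tumor states lie at or below 1.47%.

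For each pair, the share of cells with both genes was divided by the product of the single shares, so that 1 is what separate detection would give. The ratio is a description over cells of 5 samples, which share libraries and cell states. Over all tumor-gated cells Aqp4 and Agt had the highest median ratio, 8.90 (6.51 to 13.5), among pairs without Gja1. Agt with Aldh1l1 had 8.40, Aqp4 with Aldh1l1 7.37, Aqp4 with Mlc1 7.16 (5.48 to 9.56) and Agt with Mlc1 6.49 (5.80 to 8.59). Pairs with Slc1a3 were lower, from 1.21 with Gfap to 1.70 with Mlc1 and with Aldh1l1, leaving out Gja1 and S100b. The ratio cannot exceed the inverse of the larger single share, and Slc1a3 had a UMI in 41.0% to 62.9% of tumor-gated cells. A median 93.8% of cells with Mlc1 and 90.3% of those with Aqp4 also had Slc1a3. Ratios of rarely and of widely detected genes are thus not on the same scale. S100b pairs had ratios under 1 with most of the list, at 0.66 with Slc1a3 and with Mlc1, 0.68 with Slc1a2 and 0.79 with Slc6a11, and 0.998 with Gfap. Inside the AC-like gate alone Aqp4 and Agt were still found together at 1.79 to 2.24 times the product.

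**Figure D3:**
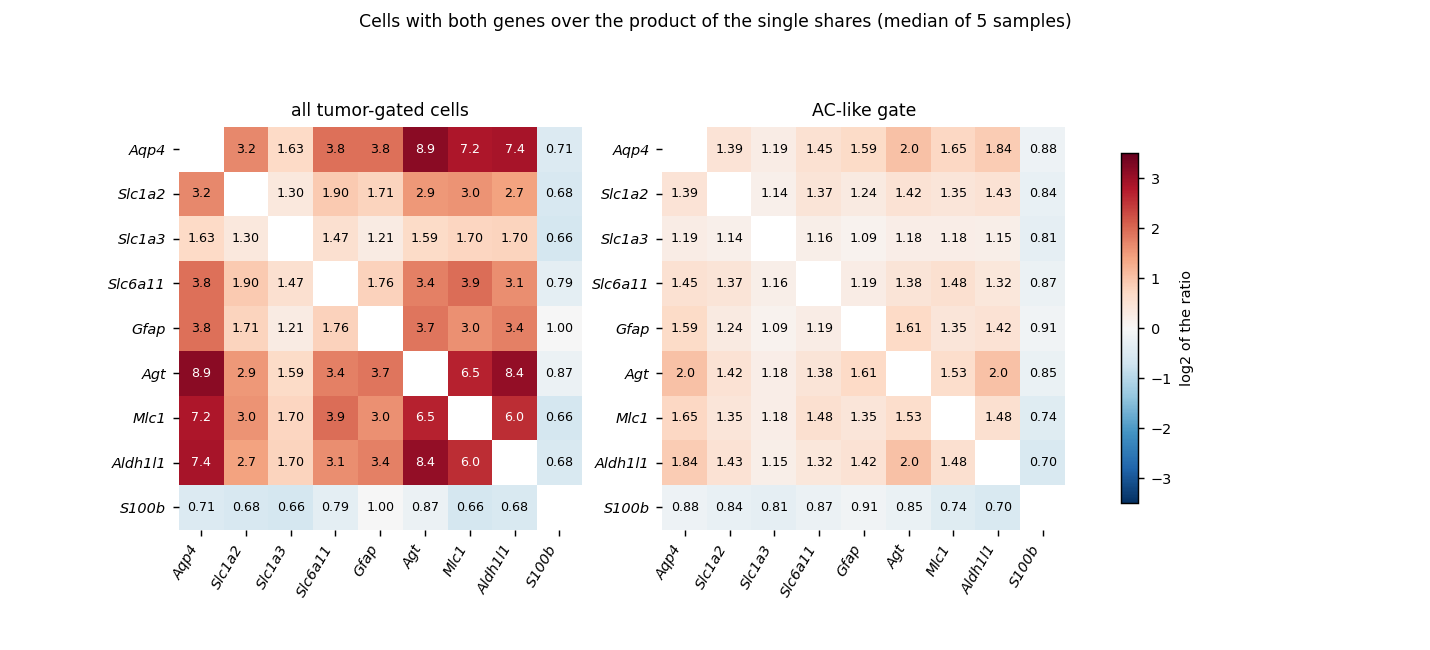
Ratio of the share of cells with both genes to the product of the single shares, median of 5 samples, over all tumor-gated cells (left) and in the AC-like gate (right), with colour on a log2 scale. Aqp4, Agt, Mlc1 and Aldh1l1 form the highest block on the left, at 6.04 or more, and the S100b row lies at or below 0.998 in both panels. The ratio cannot exceed the inverse of the larger single share, so rarely detected genes can reach higher values.

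Across 25 sums (5 samples by 5 tumor states, log2, centred per sample) the levels of Aqp4, Slc1a3, Slc6a11, Gfap, Agt, Mlc1 and Aldh1l1 correlated with each other at Pearson r of 0.89 to 0.97. S100b had r between -0.15 and 0.11 with these 7, and Slc1a2 between 0.37 and 0.60. These sums share libraries, and the coefficients describe the patterns only. Among genes at a mean log2 level of at least 5, the 3 most like Aqp4 were Lxn (r = 0.98), Tmem38a and Pea15a. Those most like Agt were Lrig1 (0.98), Lxn and Cst3, and those most like Mlc1 were Ctsb (0.98), Cst3 and Lxn. Gfap was nearest to Sidt2 (0.98), the glutamine synthetase gene Glul and Lrp10, Slc1a3 to the BMP target Id1 (0.99), Parva and Notch3, and Slc6a11 to Phkb (0.98), the brain glycogen phosphorylase gene Pygb and Glud1. Slc1a2 was nearest to Fmnl2 (0.96), Sema6d and Tspan5, Aldh1l1 to Arhgef4 (0.96), Lmbrd1 and Glt8d1, and S100b to S100a1 (0.98), Gltp and Fbxo7. For Gja1 the nearest gene, Sec14l1, reached 0.78.

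Host astrocytes express all 10 genes, so the cells with many of them were compared with other tumor cells on measures that do not use them. Cdkn2a had a UMI in 46.9% to 62.5% of tumor-gated cells with at least 5 of the 10, in 41.6% to 47.2% of those with none, and in 9.22% to 18.7% of immune-gated cells. Trp53 went the other way, at 40.2% to 46.6% with at least 5 and 49.2% to 60.9% with none, without overlap, against 30.2% to 39.2% of immune-gated cells. Nf1 was at 33.9% to 45.4% and 38.2% to 46.0%, against 16.9% to 25.3%. Against immune-gated cells of the same sample, the median log2 ratio over genes of chromosome 4, less that over all genes, was -0.29 (median of samples) in cells with at least 5 and -0.30 in cells with none. For chromosome 19 the values were -0.28 and -0.24, for chromosome 16 -0.26 and -0.20, for chromosome 15 0.22 and 0.16 and for chromosome 6 0.16 and 0.16. The values differed more on chromosome 3, at 0.12 and 0.020, and on chromosome 1, at 0.033 and -0.070. They also differed more on chromosome 12, at -0.041 and -0.14, and on chromosome X, at 0.21 and 0.12. Both kinds of cells share the immune reference of their sample. Olig2 had a UMI in 33.7% to 45.9% of cells with at least 5 and in 66.0% to 87.4% of cells with none, and the cycle gene Top2a in 22.9% to 36.0% and 51.7% to 70.2%. In immune-gated cells the shares were 11.3% to 37.5% for Olig2 and 27.5% to 49.9% for Top2a. Cells with at least 5 were above the immune-gated cells of their sample for Olig2 and below them for Top2a, in each sample.

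**Figure D4:**
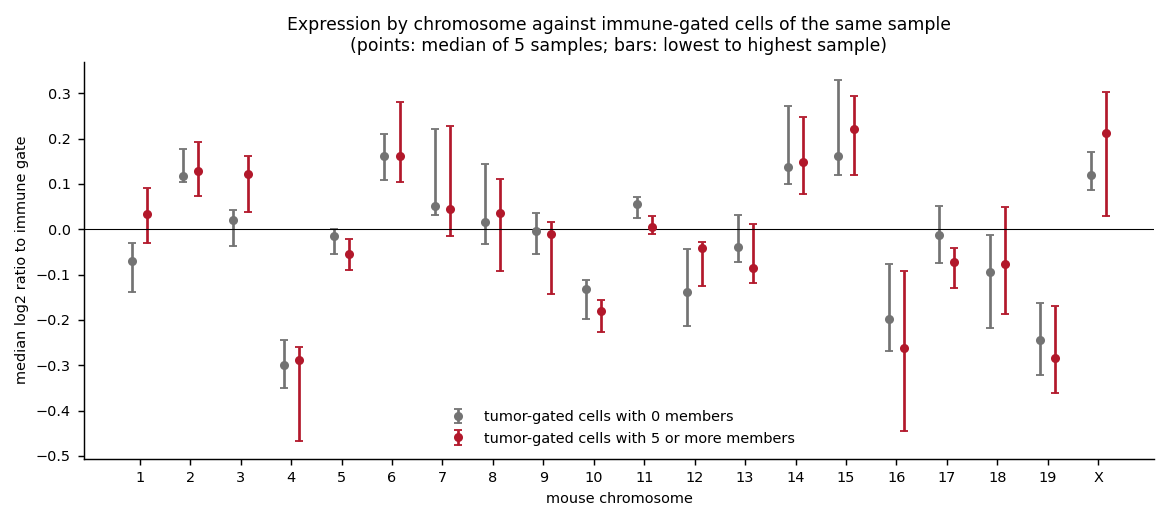
Median log2 ratio of expression to immune-gated cells of the same sample for each mouse chromosome, in tumor-gated cells with none of the 10 genes (grey) and with at least 5 (red). Points are medians of 5 samples and bars run from the lowest to the highest sample. Chromosome 4 lies at -0.30 and -0.29. The sample ranges of the 2 kinds of cells overlap on every chromosome plotted, on chromosomes 1, 3 and 11 only at their ends. These ranges do not compare the 2 kinds within a sample.

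Summed levels were lower in cycling cells. The contrast pooled all tumor states and was not run within a state, so state composition and level per cell cannot be told apart in it. Tumor-gated cells with at least 3 cycle genes detected were compared with those that had none, with the sample as a block. At an adjusted p under 0.05, 70.4% of 13985 genes differed, 34.1% higher and 36.3% lower in cycling cells. Without TMM scaling the split was 3659 higher and 6330 lower, against 4770 and 5080. Of the 10 genes 9 fell and Gja1 did not pass. Agt fell by 3.01 ± 0.18 on the log2 scale (SE, n = 5 samples, edgeR adjusted p = 2.57e-06), Aqp4 by 2.73 ± 0.18, Mlc1 by 2.48 ± 0.16 and Gfap by 2.06 ± 0.19. Aldh1l1 decreased by 1.66 ± 0.14, Slc6a11 by 1.52 ± 0.10, Slc1a2 by 1.39 ± 0.13, Slc1a3 by 0.86 ± 0.057 and S100b by 0.75 ± 0.058. The level of Agt was 11.4 to 23.8 CPM in cycling cells and 80.6 to 253 in cells without cycle genes, with no overlap. Mean CPM of Agt in cycling cells was 15.3 in vehicle and 21.2 in Xevinapant, below the 45.4 and 50.3 of the immune gate. The means of Aqp4, Mlc1, Gfap and Aldh1l1 in cycling cells were also below the immune gate's in both groups. The sizes of the falls of these genes are thus not ratios of expression. Of the 39 other astrocyte genes, 37 were tested, 26 fell and 3 rose. Itih3 (-2.75 ± 0.29), Slc39a12 (-2.25 ± 0.47) and Apoe (-1.89 ± 0.15) fell most. Nes (0.70 ± 0.062), the intermediate filament of progenitors, the ectonucleotidase Entpd2 (0.55 ± 0.13) and the transcription factor Nfib (0.22 ± 0.053) rose. At 3000 UMIs per cell the share with Slc1a3 differed little, at 39.6% to 60.3% of cycling and 39.4% to 64.9% of non-cycling cells, while that with Agt was 1.98% to 3.24% and 7.78% to 15.3%.

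Vehicle and Xevinapant were compared over 3 and 2 samples. In summed counts fewer cells of a state and less RNA per cell cannot be told apart, so the comparison was made over all tumor-gated cells and within each gate. Cycling cells were 45.2% to 50.2% of tumor-gated cells in vehicle and 33.2% and 39.9% in Xevinapant A and B. MES-like cells were 5.41% to 5.99% in vehicle and 9.24% and 7.40% in Xevinapant. The part of these shares in the differences was not tested. Over all tumor-gated cells edgeR called 0% of 14493 genes at an adjusted p under 0.05, and none of the 10 genes. At an unadjusted p under 0.05 it found 1598 genes and none of the 10, and DESeq2 called 293 genes. edgeR likewise called 0% of 12504 genes in AC-like, 13151 in OPC-like, 12208 in MES-like and 12682 in oligodendrocyte-committed cells, where 1187, 1615, 1967 and 1978 had an unadjusted p under 0.05 and DESeq2 called 103, 216, 461 and 363. In NPC-like cells edgeR called 0.0559% of 10728 genes, 0.0466% higher and 0.00932% lower, 1207 had an unadjusted p under 0.05, and DESeq2 called 112. Without the filter on low counts edgeR called 480 of 15197 genes in NPC-like and 1016 of 16778 in MES-like cells, and calls of single genes under that setting stand against these numbers. It called 139 of 12160 in MES-like and 17 of 12602 in oligodendrocyte-committed cells without vehicle A, and 41 of 11255 in NPC-like cells without Xevinapant A. Of the 10 genes none was called by edgeR in any gate. At an unadjusted p under 0.05 it found 0 of 10 tested in AC-like, 3 of 10 in OPC-like, 2 of 6 in NPC-like, 3 of 9 in MES-like and 3 of 9 in oligodendrocyte-committed cells. With 3 against 2 samples the two-sided exact permutation test cannot go below p = 0.2, the value it gives when the groups do not overlap.

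**Figure D5:**
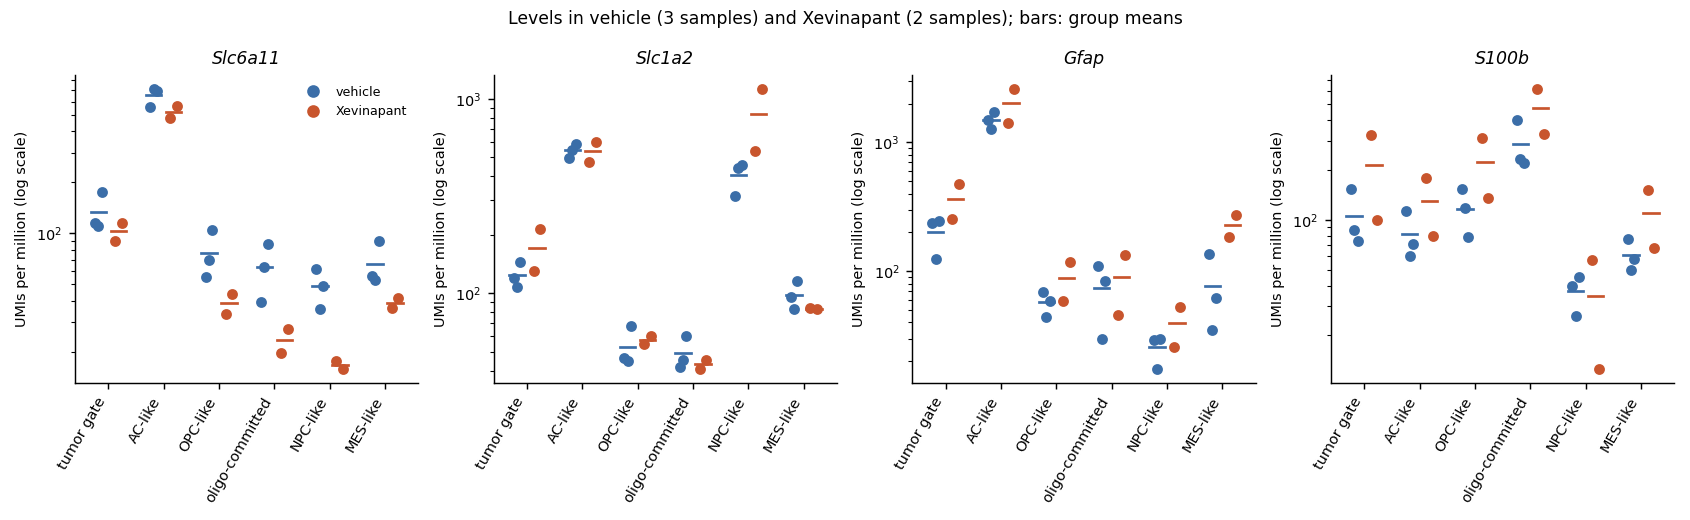
Levels of Slc6a11, Slc1a2, Gfap and S100b in vehicle (3 samples) and Xevinapant (2 samples), in CPM on a log axis, over all tumor-gated cells and in 5 gates. Points are samples and bars are group means. Slc6a11 is lower in both Xevinapant samples than in every vehicle sample in 4 of the 5 gates, the AC-like gate being the exception.

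Slc6a11 was lower in both Xevinapant samples than in every vehicle sample in 4 gates. In NPC-like cells it was 61.7, 35.7 and 49.2 CPM in vehicle and 17.6 and 15.9 in Xevinapant, in oligodendrocyte-committed cells 39.6, 63.4 and 86.1 against 19.7 and 27.1, in OPC-like cells 55.3, 69.6 and 104 against 33.6 and 43.6, and in MES-like cells 56.2, 53.0 and 89.7 against 36.1 and 41.5. Of all genes with at least 50 UMIs, 14.6%, 16.2%, 12.4% and 16.3% were likewise lower without overlap in these gates, in that order. In AC-like cells, where its level was highest, it was 560, 717 and 691 against 477 and 567, and the groups overlapped. The log2 differences were -1.58 ± 0.30 in NPC-like cells (SE, edgeR adjusted p = 0.101), -1.43 ± 0.31 in oligodendrocyte-committed cells (0.216), -1.02 ± 0.28 in OPC-like cells (0.376), -0.80 ± 0.24 in MES-like cells (0.193) and -0.33 ± 0.16 in AC-like cells (0.558). None passed. Over all tumor-gated cells the difference was -0.43 ± 0.23 (0.505) and the groups overlapped, and none of the 10 genes was lower without overlap there, against 11% of all genes. DESeq2 called the first 3 (adjusted p of 0.0162, 0.00110 and 0.0268), as did edgeR with each matrix as a sample. Without the filter on low counts edgeR called Slc6a11, among the 480 genes in NPC-like (adjusted p = 5.23e-05) and the 1016 in MES-like cells (0.00339), and without vehicle A in oligodendrocyte-committed cells (-1.69, edgeR adjusted p = 0.0342). The share of tumor-gated cells with a Slc6a11 UMI was 21.4% ± 5.44 (SD, n = 3) in vehicle and 14.3% ± 1.44 (n = 2) in Xevinapant (two-sided exact permutation p = 0.2), with 18.2%, 18.2% and 27.7% against 13.3% and 15.3%. The immune-gate level of Slc6a11 was 30.3, 125 and 53.3 in vehicle and 19.6 and 64.7 in Xevinapant. Mean CPM in endothelial-gated cells was 242 in vehicle and 16.4 in Xevinapant. Fibroblast-gated cells had 50.1 and 4.99, and erythroid-gated cells 131 and 43.8. These host gates held 146, 320 and 197 cells in all. A lower level in Xevinapant was thus not particular to tumor states, and the part of host levels in the differences was not tested.

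Slc1a2 in NPC-like cells was higher in both Xevinapant samples, with a log2 difference of 1.07 ± 0.29 (edgeR adjusted p = 0.229), and 13.3% of genes were higher without overlap in that gate. NPC-like cells are few, at 37 cells in Xevinapant A and 83 in vehicle C. DESeq2 called it at an adjusted p of 0.0170, and edgeR did without the filter on low counts (1.36e-05). The value was 1.49 without Xevinapant A, which passed (edgeR adjusted p = 0.0440), and 0.45 without Xevinapant B. Over all tumor-gated cells Slc1a2 differed by 0.41 ± 0.22 (adjusted p = 0.504), and by 0.026 without Xevinapant B. In the other gates the log2 difference was -0.0069 ± 0.16 (AC-like), 0.090 ± 0.20 (OPC-like), -0.26 ± 0.16 (MES-like) and -0.18 ± 0.16 (oligodendrocyte-committed).

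Gfap over all tumor-gated cells was 238, 124 and 245 CPM in vehicle and 252 and 472 in Xevinapant, a log2 difference of 0.79 ± 0.34 (edgeR adjusted p = 0.462), and 18.8% of genes were higher without overlap. With 1 sample left out the difference was 0.29 (without Xevinapant B) to 1.15. In MES-like cells it was 135, 34.7 and 61.5 against 183 and 271, a difference of 1.53 ± 0.46 (adjusted p = 0.189), and 19.1% of genes were higher without overlap in that gate. Without vehicle A this value was 2.204 and passed (edgeR adjusted p = 0.0370), as did 1.54 without the filter on low counts (3.13e-08). The immune-gate level of Gfap averaged 178 CPM (SD 167) in vehicle and 241 (SD 275) in Xevinapant. Erythroid-gated cells averaged 160 (SD 69.4) and 769 (SD 235), and endothelial-gated cells 161 (SD 193) and 445 (SD 617). Fibroblast-gated cells went the other way, at 199 (SD 208) and 26.6 (SD 24.6). The part of these host levels in the MES-like difference was not tested. In AC-like cells the Gfap difference was 0.43 ± 0.27 (adjusted p = 0.627), and it was -0.078 without Xevinapant B, whose level was 2615. It was 0.59 ± 0.29 in OPC-like, 0.73 ± 0.33 in NPC-like and 0.24 ± 0.53 in oligodendrocyte-committed cells. The share of tumor-gated cells with Gfap was 14.8% ± 3.95 in vehicle and 22.5% ± 7.74 in Xevinapant (two-sided exact permutation p = 0.4).

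S100b was high in 1 sample. Over all tumor-gated cells it was 153, 86.8 and 74.6 CPM in vehicle and 328 and 99.3 in Xevinapant, a log2 difference of 0.995 ± 0.50 (edgeR adjusted p = 0.496), and -0.14 without Xevinapant A. The same held in AC-like cells, with 0.66 ± 0.36 (adjusted p = 0.580) and -0.039 without that sample. In OPC-like cells the difference was 0.93 ± 0.38 (0.397), in MES-like cells 0.82 ± 0.32 (0.275) and in oligodendrocyte-committed cells 0.74 ± 0.33 (0.330), and these were 0.16, 0.11 and 0.16 without Xevinapant A. The MES-like difference passed without the filter on low counts (edgeR adjusted p = 0.00158). In NPC-like cells it was -0.39 ± 0.57 (0.846), and 0.64 without Xevinapant B. None of the 10 genes was higher without overlap in OPC-like cells, against 19.8% of all genes. Xevinapant A also had the largest share of oligodendrocyte-committed cells, 19.9% of its tumor-gated cells against 7.46% to 13.98% in the other 4 samples. The share with an S100b UMI was 19.7% ± 4.39 in vehicle and 29.3% ± 14.7 in Xevinapant (two-sided exact permutation p = 0.4).

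Slc1a3 differed by -0.76 ± 0.32 in oligodendrocyte-committed cells (log2, edgeR unadjusted p = 0.0450, adjusted p = 0.310), with 140, 236 and 313 CPM in vehicle and 106 and 166 in Xevinapant, which overlapped. None of the differences (± SE) of Slc1a3, Mlc1, Aqp4, Agt, Aldh1l1 and Gja1 between the groups passed with all samples in the fit. In the other gates Slc1a3 differed by -0.48 ± 0.35 (OPC-like), 0.24 ± 0.19 (NPC-like), -0.11 ± 0.21 (AC-like) and -0.058 ± 0.19 (MES-like), and -0.062 ± 0.24 over all tumor-gated cells.

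Mlc1 in OPC-like cells differed by -0.89 ± 0.34 (edgeR adjusted p = 0.393) and in oligodendrocyte-committed cells by -1.33 ± 0.41 (0.240), at levels of 2.49 to 15.97 CPM that are within the immune-gate range of 9.73 to 67.6 or below it. Aqp4 in AC-like cells differed by -0.66 ± 0.51 (0.692), and its highest value, 909, was that of vehicle C. Without vehicle C the difference was 0.060. Aqp4 differed by -0.38 ± 0.60 over all tumor-gated cells, -0.52 ± 0.53 in OPC-like, -0.75 ± 0.88 in MES-like and -0.86 ± 0.71 in oligodendrocyte-committed cells, and Mlc1 by -0.10 ± 0.25 over all tumor-gated cells, -0.28 ± 0.21 in AC-like, -0.70 ± 0.62 in NPC-like and -0.30 ± 0.40 in MES-like cells. Agt over all tumor-gated cells differed by 0.52 ± 0.34 (0.575), and by -0.22 without Xevinapant B. It differed by 0.16 ± 0.31 in AC-like, 0.57 ± 0.37 in OPC-like, 0.14 ± 0.91 in MES-like and -0.27 ± 0.58 in oligodendrocyte-committed cells, and the MES-like value was 2.21 and passed without vehicle A (edgeR adjusted p = 0.0491). Agt averaged 26.2 CPM in MES-like cells of vehicle and 29.0 of Xevinapant, below the 45.4 and 50.3 of the immune gate. Aldh1l1 in AC-like cells was 12.7, 15.4 and 12.6 CPM in vehicle and 6.95 and 12.2 in Xevinapant, without overlap, as 14.8% of genes were in that gate. Its log2 difference was -0.47 ± 0.28 there, -0.20 ± 0.33 over all tumor-gated cells, -0.68 ± 0.46 in OPC-like, -1.47 ± 0.69 in MES-like and 0.16 ± 0.46 in oligodendrocyte-committed cells. Gja1, at its low levels, differed by 0.20 ± 0.77, -0.22 ± 1.03 and 1.004 ± 0.80 over all tumor-gated, AC-like and OPC-like cells.

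AC-like cells were 9.40% ± 1.14 of tumor-gated cells in vehicle and 11.3% ± 1.21 in Xevinapant (two-sided exact permutation p = 0.2), with 10.3%, 8.12% and 9.80% against 10.5% and 12.2%. With cells thinned to 6000 UMIs instead the shares were 12.02% ± 0.869 (SD) and 12.4% ± 1.96 (two-sided exact permutation p = 1), and the groups overlapped. Cells with at least 5 of the 10 genes were 5.05% ± 1.04 and 5.81% ± 1.77 (p = 0.6 by the same exact test). In the 6 comparisons of the groups none of the 39 other astrocyte genes passed either, and 29 to 38 of them were tested.

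Whether the treatment difference itself varied between states was tested as an interaction with the AC-like gate, with the sample as a block. For Slc6a11 the difference of the log2 differences was -1.34 ± 0.34 in NPC-like (edgeR adjusted p = 0.177), -1.08 ± 0.20 in oligodendrocyte-committed (0.626), -0.68 ± 0.18 in OPC-like (0.933) and -0.48 ± 0.19 in MES-like cells (0.408). For Slc1a2 in NPC-like cells it was 0.99 ± 0.23 (0.127) and for S100b there -1.11 ± 0.32 (0.231). No gene of the 10 passed, while 0.404% of all genes did in the NPC-like, 0.00744% in the OPC-like, 0.00791% in the MES-like and 0% in the oligodendrocyte-committed test.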

How the data were processed

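Fixed cells were hybridised to a mouse probe panel (10x Flex) and the authors deposited UMI counts per gene and barcode in 8 matrices, mapped to mm10 with Cell Ranger per the labels, which name Seurat for later steps (the version of Cell Ranger in the file headers differs from that in the labels). Barcodes with at least 200 genes, at most 10% mitochondrial counts and a complexity of at least 0.8 were kept (54574 of 56943). Scrublet scores (scanpy 1.11.5) removed doublets at 0.8% per 1000 cells, a higher rate than the labels state, leaving 50962. The 39638 cells of at least 3000 UMIs were thinned to that number and gated by how many gate genes had a UMI: 3 of 6 for the AC-like, oligodendrocyte-committed, NPC-like and MES-like gates, and 5 of 7 for OPC-like cells. One gene of the AC-like gate is not reported here. These numbers were set after the gate genes' distributions were seen. The full counts were summed per sample and gate (at least 10 cells) and tested with edgeR 4.0.16 (TMM, filterByExpr, quasi-likelihood test, Benjamini-Hochberg over all genes); SE is the log2 difference over the square root of F. Calls were also run on simulated data drawn with the trended dispersion. The recovery is not reported here, so no power is claimed for the comparisons without calls. Shares were compared by two-sided exact permutation tests. Alternatives were DESeq2 1.42.0, other scaling, filters, thinning and gates, each matrix as a sample, and each sample left out. Leaving out cells with barcodes found in both pools and the interaction tests were added after seeing the data. The 10 genes, the gate lists and the 39 other genes were chosen with earlier results of these data known. All 10 genes are described, and of the 39 others those that rose or fell most (up to 3 per direction). Files of the Xevinapant sample carry a vehicle tag in their names, and the sample label was followed. Promoters are from RefSeq.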

Additional observations from a re-analysis of the deposited data

How the results depend on the processing

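No paired analysis was possible because each group is 1 pooled library with no replicate number in the labels, and the joined samples combine different matrix numbers in each group. Of the values compared, the 9 calls between AC-like and OPC-like cells and the 9 between cycling and non-cycling cells were the same number under every alternative run. In the comparison of vehicle with Xevinapant none of the 10 genes was called in any gate in the reported fit. Over all tumor-gated cells and in AC-like cells no alternative called one. DESeq2 called 1 in OPC-like cells, 2 in NPC-like cells and 1 in oligodendrocyte-committed cells, and each matrix as 1 sample gave the same numbers. Without a filter on low counts 2 were called in NPC-like and 3 in MES-like cells, where 480 of 15197 and 1016 of 16778 genes were. With each sample left out in turn, 0 to 1 were called in NPC-like, 0 to 2 in MES-like and 0 to 1 in oligodendrocyte-committed cells, where 0 to 41, 0 to 139 and 0 to 17 of all genes were. For the share of cells with a UMI, each matrix as 1 sample put 1 gene, Slc6a11, past the threshold (-6.27 percentage points, two-sided exact permutation p = 0.0286). Leaving out a sample gave differences of 1.07 to 2.78 percentage points for the share of AC-like cells and -0.482 to 2.01 for cells with at least 5 of the genes, the lowest without Xevinapant B. With 1 sample left out, the sign of the treatment difference (log2) turned for Aqp4 (-0.79 to 0.47), Slc1a3 (-0.25 to 0.15), Gja1 (-0.31 to 1.35), Agt (-0.22 to 1.003), Mlc1 (-0.48 to 0.19), Aldh1l1 (-0.50 to 0.040) and S100b (-0.14 to 1.62) in all tumor-gated cells. It turned for Aqp4 (-1.14 to 0.060), Slc1a2 (-0.19 to 0.15), Gja1 (-0.71 to 0.33), Gfap (-0.078 to 0.81), Agt (-0.58 to 0.64), Mlc1 (-0.64 to 0.0072) and S100b (-0.039 to 1.14) in AC-like cells. It turned for Aqp4 (-1.18 to 0.071), Slc1a2 (-0.034 to 0.31) and Agt (-0.074 to 0.98) in OPC-like cells. It turned for S100b (-1.56 to 0.64) in NPC-like cells. It turned for Slc1a3 (-0.18 to 0.096) and Agt (-0.34 to 2.21) in MES-like cells. It turned for Gfap (-0.66 to 0.79), Agt (-1.07 to 0.45) and Aldh1l1 (-0.12 to 0.37) in oligodendrocyte-committed cells. Turns of sign also occurred for Gja1 between AC-like and OPC-like cells (-0.11 to 0.63) and Gja1 between cycling and non-cycling cells (-0.15 to 0.26). For the shares of cells (percentage points) the sign turned for Aqp4 (-1.53 to 1.06), Gja1 (-0.0289 to 0.161), Mlc1 (-2.34 to 0.426), S100b (-0.831 to 19.9), Slc1a2 (-0.727 to 5.61) and Slc1a3 (-13.9 to 0.523). With each matrix as 1 sample the sign turned for Slc1a3 in all tumor-gated cells (0.029), Slc1a2 in AC-like cells (0.033), Slc1a3 in MES-like cells (0.0055) and Agt in MES-like cells (-0.20). With no doublets removed the sign turned for Slc1a2 in AC-like cells (0.060) and Gja1 in AC-like cells (0.0018). With DESeq2 the sign turned for Gja1 in AC-like cells (0.019). With a stricter gate the sign turned for Agt in AC-like cells (-0.099), Slc1a2 in OPC-like cells (-0.10), Agt in OPC-like cells (-1.36), Agt in MES-like cells (-0.26), Gfap in oligodendrocyte-committed cells (-0.36) and Gja1 between cycling and non-cycling cells (-0.067). With gates at 1500 UMIs the sign turned for Agt in OPC-like cells (-0.26), Aldh1l1 in OPC-like cells (0.11), Gfap in NPC-like cells (-0.87), Aqp4 in MES-like cells (0.071), Slc1a2 in oligodendrocyte-committed cells (0.31) and Gja1 between cycling and non-cycling cells (-0.41). Without TMM the sign turned for Gja1 between cycling and non-cycling cells (-0.074). With cells thinned to 1500 UMIs the sign turned for the share with Aldh1l1 (-0.0858). With 1 Xevinapant sample left, shares have no test, and the stricter gate was not run for all tumor-gated cells. The causes were not tested. DESeq2 called 293 genes over all tumor-gated cells, 103 in AC-like, 216 in OPC-like, 112 in NPC-like, 461 in MES-like and 363 in oligodendrocyte-committed cells, and edgeR with each matrix as a sample 659, 107, 562, 299, 934 and 1203. edgeR called 0 in these gates except 6 in NPC-like cells. Shares at or near the immune-gate level limit what can be read of Aqp4, Agt, Mlc1 and Gfap outside AC-like cells.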
